A study of Mus musculus with 10 samples.

Results

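The genes described here are the 73 rows, of 24421 in the count tables, whose symbol is Gpr followed by a number. The symbol was given to genes cloned by their likeness to G protein-coupled receptors before a ligand was known. The RNA came from pools of single vagal sensory neurons of the mouse, whose nodose neurons lie at the caudal end and jugular neurons at the rostral end of a fused ganglion. In the Trpv1 selection, pools of 30 red fluorescent nodose neurons, 30 red fluorescent jugular neurons and 15 unlabelled nodose neurons were picked from Trpv1-tdTomato mice, with 2 pools of each kind. These mice carry Cre at the Trpv1 locus and a Cre-dependent tdTomato at Rosa26, so the label marks cells that express or once expressed Trpv1, and all red cells came from 2 mice, which also gave the unlabelled cells. In the capsaicin selection, C57BL/6 neurons were picked for a calcium response to capsaicin, the jugular pools holding 15 and 16 cells that had not responded to the purinergic agonist α,β-methylene-ATP and the nodose pools 14 and 15 cells that had. The 5 groups are called Trpv1-positive nodose, Trpv1-positive jugular, Trpv1-negative nodose, capsaicin nodose and capsaicin jugular, each with n = 2 pools.

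G protein-coupled receptors cross the plasma membrane and pass a signal from a ligand outside the cell to G proteins inside it, and in vagal afferents they carry the response to mediators, nutrients and hormones. Orphan receptors are those with no agreed ligand. Many genes that kept the name Gpr have since been given a lipid, metabolite, proton or peptide ligand, and several encode membrane proteins of the Golgi apparatus or lysosome that are not known to signal as classical receptors.

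The total count was 148452506 to 167704327 per pool in the Trpv1 selection and 17666710 to 30810863 in the capsaicin selection. Levels are given as counts per 1000000 counts (CPM) after division by the DESeq2 size factors of all 10 pools, and 3 counts, taken as the floor of detection, corresponded to 0.0116 to 0.0154 CPM and 0.118 to 0.176 CPM, respectively. Such floors cover counting error only. Each selection had its own sequencing core, strain and depth, and a difference between the selections cannot be told apart from these. Nothing in the labels says that the 2 pools of a group came from separate animals, and p-values then measure the spread between pools, which may be technical. Summed markers of vagal sensory neurons were at 5345 to 12510 CPM in every pool, the nodose marker Hoxb5 at 233 to 417 CPM in nodose pools and at most 0.196 CPM in jugular pools, and Trpv1 was at 0.0348 and 0.0334 CPM in the Trpv1-negative pools against 17.8 to 248 CPM in the others. Satellite glia markers summed to 2242 to 3379 CPM in pools of the Trpv1 selection, whereas capsaicin pools had 183 to 604 CPM, and the part of glial RNA in the levels below was not tested. In pools, fewer cells that express a gene and less RNA per cell cannot be told apart.

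Of the 73 Gpr genes, 41 (56.2%) stayed under 10 CPM in every pool, near the share of all genes (53.3%). No count was found in any of the 10 pools for 25 of the 73 (34.2%), close to the share of all genes with no count (33.5%). A further 5 had counts that never passed 3 in a pool, 11 passed 3 counts but stayed under 10 CPM everywhere, and 32 reached 10 CPM in at least 1 pool. The genes with no count included receptors of oxysterols (Gpr183), lysophosphatidylinositol (Gpr55) and zinc (Gpr39), the fatty acid receptor Gpr84, and Gpr6 and Gpr12, which raise cyclic AMP without a ligand. Their absence holds only down to the floors given above.

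Only 11 Gpr genes reached 10 CPM in both pools of at least 1 group: Gpr107, Gpr108, Gpr137, Gpr153, Gpr155, Gpr157, Gpr160, Gpr176, Gpr19, Gpr35 and Gpr89. No Gpr gene reached 10 CPM in all 10 pools, whereas 7.23% of all genes did. Conversely, 14 Gpr genes (19.2%) reached it in exactly 1 pool, against 8.12% of all genes. The number at 10 CPM was 12 and 12 in the Trpv1-positive nodose pools, 7 and 7 in the Trpv1-positive jugular pools, 13 and 12 in the Trpv1-negative nodose pools, 7 and 5 in the capsaicin nodose pools and 10 and 8 in the capsaicin jugular pools. These are 6.85% to 17.8% of the 73, whereas 17.3% to 27.9% of all genes reached 10 CPM in a pool.

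**Figure D1:**
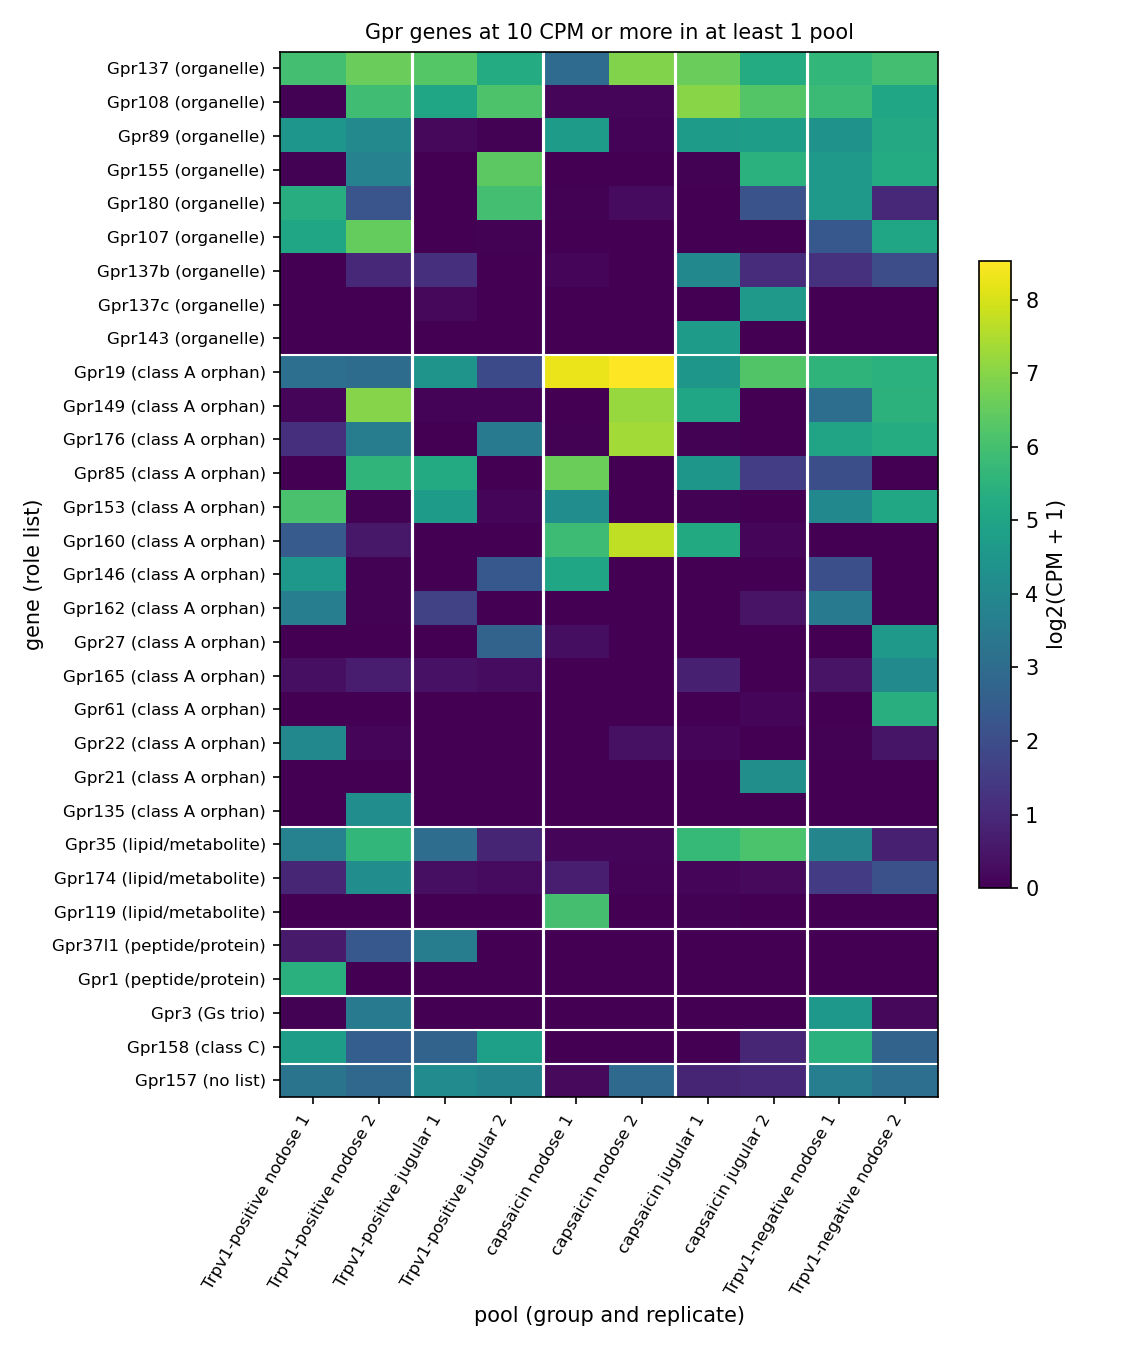
Level of 31 of the 32 Gpr genes that reached 10 CPM in any pool, as log2(CPM + 1), with genes in rows by role list and the 10 pools in columns by group. Gpr137 was the gene at 10 CPM in most pools (9 of 10), and 13 of the rows shown are at 10 CPM in a single column.

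The level of a Gpr gene often differed widely between the 2 pools of a group. In the Trpv1-positive nodose group 20 Gpr genes were at 10 CPM or more in a pool, and 13 of them (65.0%) were under 1 CPM in the other pool, against 22.5% of all genes. The same shares were 54.5% and 17.4% in Trpv1-positive jugular, 70.0% and 44.3% in capsaicin nodose, 46.2% and 27.3% in capsaicin jugular, and 38.9% and 14.6% in Trpv1-negative nodose pools. The median level in the higher pool was lower for the Gpr genes than for all such genes in every group but capsaicin nodose. It was 24.5 against 52.1 CPM in Trpv1-positive nodose and 27.1 against 43.7 CPM in Trpv1-positive jugular pools. In capsaicin jugular pools it was 31.1 against 46.8 CPM, and in Trpv1-negative nodose pools 33.7 against 40.5 CPM. Capsaicin nodose pools had 108 against 98.6 CPM. The difference in share was not tested, and the level of the higher pool was not matched between the gene lists. A mean of 2 such pools describes neither of them, and the level in each pool is therefore given below.

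**Figure D2:**
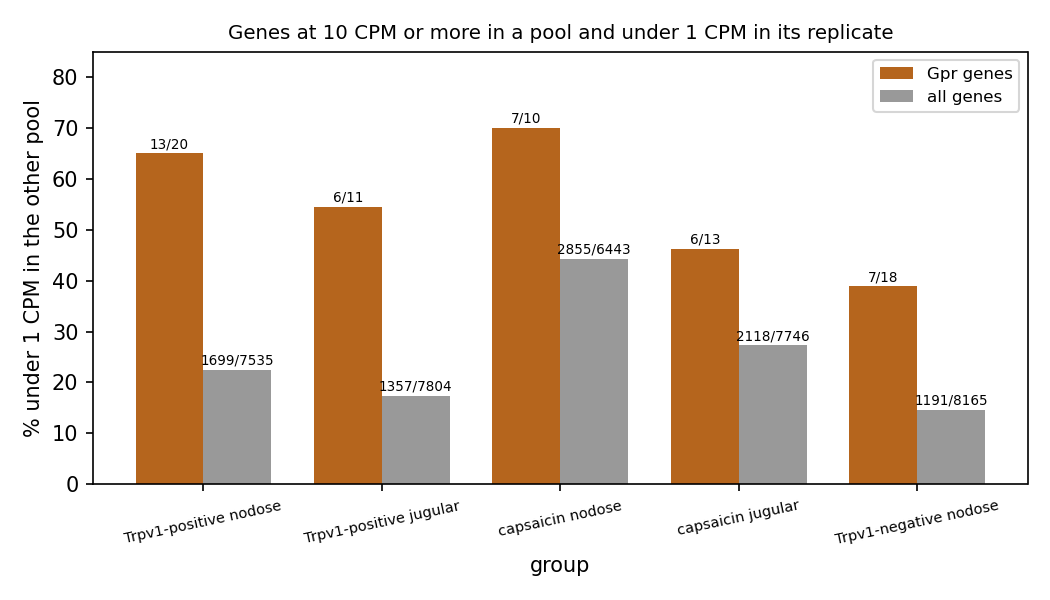
Share of genes at 10 CPM or more in a pool of a group that were under 1 CPM in the other pool of that group, in percent, for the Gpr genes and for all genes, with the counts above the bars. The share was higher for the Gpr genes in all 5 groups, from 38.9% in Trpv1-negative nodose to 70.0% in capsaicin nodose pools.

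The organelle membrane proteins reached 10 CPM in a larger share than the other role lists. All 9 of that list that were counted reached 10 CPM in a pool, and 5 of the 9 did so in both pools of a group. Gpr137b, Gpr137c and Gpr143 of this list did so in exactly 1 pool. Of all genes, 53.3% stayed under 10 CPM in every pool. Class A orphans are a list of rhodopsin-like receptors taken to have no agreed ligand, although it includes Gpr39, named above for zinc. Of this list, 15 of 39 reached 10 CPM in a pool, 4 did so in both pools of a group, and 13 had no count anywhere. Of 9 receptors with a lipid or metabolite ligand, 3 reached 10 CPM, 6 had no count, and only Gpr35 reached it in both pools of a group. Of 6 receptors with a peptide or protein ligand, 2 reached 10 CPM in a pool and none in both pools of a group.

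Gpr137 (chr19:6938057-6942480, GRCm38), whose family lies on the lysosomal membrane, was the most even of the 11. Its level was 62.7 and 95.3 CPM in Trpv1-positive nodose, 77.0 and 37.1 CPM in Trpv1-positive jugular, 49.2 and 61.9 CPM in Trpv1-negative nodose, 6.84 and 118 CPM in capsaicin nodose, and 93.8 and 36.9 CPM in capsaicin jugular pools. Each group overlapped its comparison group, except that both Trpv1-positive nodose pools were above both Trpv1-negative ones by a small margin. Over the 8 nodose and jugular pools its fitted difference was a log2 fold change of -0.01 (SE 0.98). Per kilobase of exon its median over the 10 pools was 18.3 CPM, against 15.2 for Gpr108, 11.2 for Gpr19, 3.79 for Gpr89 and 2.07 for Gpr35.

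The first comparison asks how nodose and jugular neurons of the Trpv1 lineage differ. Gpr107 and Gpr89, both membrane proteins of the Golgi, were above 10 CPM in both nodose pools and near 0 in both jugular pools, and no Gpr gene had the opposite pattern. A level of 10 CPM or more in both pools of a group and at least 2-fold above both pools of the other was found for 2 of the 73 Gpr genes in the nodose direction, where 2.21% of all genes had it, and for 0 in the jugular direction, where 2.62% had it. Neither share was tested against the other.

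Gpr107, a protein of the trans-Golgi network, was at 31.4 and 89.9 CPM in Trpv1-positive nodose and at 0.00431 and 0.0283 CPM in Trpv1-positive jugular pools, the latter resting on 1 and 7 counts. Over both pools the nodose level was 3680 times the jugular level, with a 95% exact Poisson interval of 1870 to 8520 that covers counting error only. It was also at 4.07 and 32.4 CPM in Trpv1-negative nodose pools and had no count in any of the 4 capsaicin pools. High levels of Gpr107 were thus seen in nodose pools of 1 selection, and the nodose pools of the other had none.

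Gpr89, the Golgi pH regulator, was at 21.3 and 15.1 CPM in Trpv1-positive nodose and 0.134 and 0.0242 CPM in Trpv1-positive jugular pools. The ratio of the summed and scaled counts was 234 (95% exact Poisson interval 170 to 333, counting error of reads only). In capsaicin jugular pools, however, it was at 25.3 and 26.5 CPM, above the 24.8 and 0.0585 CPM of capsaicin nodose pools, and in Trpv1-negative nodose pools at 19.4 and 34.4 CPM. The low jugular level of Gpr89 was thus seen in 1 selection only, and the difference between the selections was tested with the interaction below.

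The 300 bases around the RefSeq start sites of this pair are shown (GRCm38.p6, 250 before and 50 after). The pair was chosen because both were above 10 CPM in Trpv1-positive nodose and near 0 in Trpv1-positive jugular pools. From the first to the second Trpv1-positive nodose pool, Gpr107 was higher and Gpr89 lower. Capitals mark the CG dinucleotides, of which Gpr107 (chr2:31152066-31152365, plus strand) holds 20 and Gpr89 (chr3:96905249-96905548, minus strand) 11, whereas the median of 32851 such windows is 7.
Gpr107: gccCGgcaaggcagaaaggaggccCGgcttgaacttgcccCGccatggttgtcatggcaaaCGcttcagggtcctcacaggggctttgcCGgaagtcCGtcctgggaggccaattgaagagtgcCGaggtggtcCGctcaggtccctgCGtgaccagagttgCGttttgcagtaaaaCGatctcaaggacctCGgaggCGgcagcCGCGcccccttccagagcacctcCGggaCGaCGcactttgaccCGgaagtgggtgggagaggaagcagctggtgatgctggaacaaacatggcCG
Gpr89: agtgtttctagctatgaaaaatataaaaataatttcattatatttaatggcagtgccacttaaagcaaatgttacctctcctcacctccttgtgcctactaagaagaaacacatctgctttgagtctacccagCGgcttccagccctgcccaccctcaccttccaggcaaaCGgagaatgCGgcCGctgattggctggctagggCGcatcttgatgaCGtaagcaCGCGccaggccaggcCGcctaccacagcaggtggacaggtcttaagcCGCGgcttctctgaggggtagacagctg
The motif GGGCGG (the GC box), searched on both strands, is in neither window and in 35.7% of all windows. No factor binding or methylation was measured, and the windows are a description only. A window was given for 51 of the 73 Gpr genes.

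By edgeR's quasi-likelihood test with Benjamini-Hochberg adjustment, no Gpr gene passed in this comparison (0 of 24 tested), where 0.318% of all genes tested were called. A call needed 10 CPM in both pools of a group, a 2-fold change and an adjusted p no higher than 0.1. At an unadjusted p under 0.05 there were 6 of the 24 (25%; 11.9% of all genes), namely Gpr107, Gpr149, Gpr160, Gpr179, Gpr22 and Gpr89. DESeq2 called 2 of 40 tested, Gpr107 and Gpr89, where 3.39% of all genes were called. The log2 fold change of Gpr107 was 11.80 (SE 2.23, adjusted p = 0.289) by edgeR and 11.89 (adjusted p = 1.03e-08) by DESeq2. For Gpr89 it was 7.83 (SE 2.60, adjusted p = 0.337) by edgeR and 7.88 (adjusted p = 3.99e-05) by DESeq2. The direction was alike in both tools, and the calls rest on the tool. The median log2 fold change of the 24 was 0.43, beside 0.03 for all genes tested, and with 2 pools against 2 an exact permutation test cannot reach 0.05.

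Several other Gpr genes were high in 1 nodose pool only. Gpr149, a class A orphan, was at 0.0978 and 124 CPM in the nodose and 0.0474 and 0.0646 CPM in the jugular pools. Gpr22, an orphan known from heart and brain, was at 14.8 and 0.0981 CPM in nodose pools and had no count in jugular pools. Gpr135 reached 17.2 CPM in 1 nodose pool with no count in the other 9 pools. On the jugular side Gpr179, known from retinal bipolar cells, was at 6.68 and 2.24 CPM while the nodose pools had 0 and 0.0049 CPM, and it never reached 10 CPM. Gpr157, a Gq-coupled protein of primary cilia, was at 16.2 and 13.2 CPM in jugular and at 8.80 and 6.33 CPM in the nodose pools (log2 fold change -0.97, SE 1.74).

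The second comparison asks the same of neurons picked by their capsaicin response. Gpr19 was higher in both capsaicin nodose pools, and Gpr35 and Gpr108 were near 0 in both of them while above 50 CPM in both capsaicin jugular pools. The rule of separated pools was met by 1 Gpr gene in the nodose direction, where 2.22% of all genes met it, and by 2 in the jugular direction, where 3.64% did.

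Gpr19 (chr6:134869093-134898578), a class A orphan known from brain, had the highest level of any Gpr gene in these data. It was at 312 and 369 CPM in capsaicin nodose pools (340.1 ± 40.2 CPM, SD, n = 2) and at 22.1 and 73.1 CPM in capsaicin jugular pools (47.6 ± 36.1 CPM, SD, n = 2). The level was lower in the Trpv1 selection, at 7.71 and 7.09 CPM in Trpv1-positive nodose, 20.5 and 2.79 CPM in Trpv1-positive jugular and 46.2 and 43.1 CPM in Trpv1-negative nodose pools. Nodose pools thus held both its highest and nearly its lowest levels. Its log2 fold change in the capsaicin selection was 2.45 (SE 0.96, adjusted p = 0.354) by edgeR and 2.59 (adjusted p = 0.614) by DESeq2, so neither tool called it. With plain library totals in place of size factors the mean of the capsaicin nodose pools was 269 CPM, still the highest of the 5 groups.

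Gpr35 (chr1:92950865-92986391), a receptor that responds to kynurenic acid, was at 51.6 and 69.0 CPM in capsaicin jugular pools and at 0.0834 and 0.117 CPM in capsaicin nodose pools, which is 2 counts in each. The ratio was 617 with a 95% exact Poisson interval of 241 to 2260, which covers counting error of reads only. In the Trpv1 selection the order was the opposite: 12.8 and 48.8 CPM in Trpv1-positive nodose and 7.20 and 0.836 CPM in Trpv1-positive jugular pools. The Trpv1-negative nodose pools were at 13.7 and 0.663 CPM.

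Gpr108 (chr17:57234635-57248446), the Golgi paralog of Gpr107, was at 127 and 75.8 CPM in capsaicin jugular pools and at 0.0834 and 0.117 CPM in capsaicin nodose pools, again 2 counts in each. The ratio was 1050 (95% exact Poisson interval 411 to 3860, counting error of reads only). In the Trpv1 selection it was at 32.3 and 69.5 CPM in jugular, 0.0412 and 59.7 CPM in Trpv1-positive nodose and 54.7 and 31.6 CPM in Trpv1-negative nodose pools. Gpr108 was above 10 CPM in all 4 jugular pools and in 3 of the 6 nodose pools, and near 0 in the other 3.

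**Figure D3:**
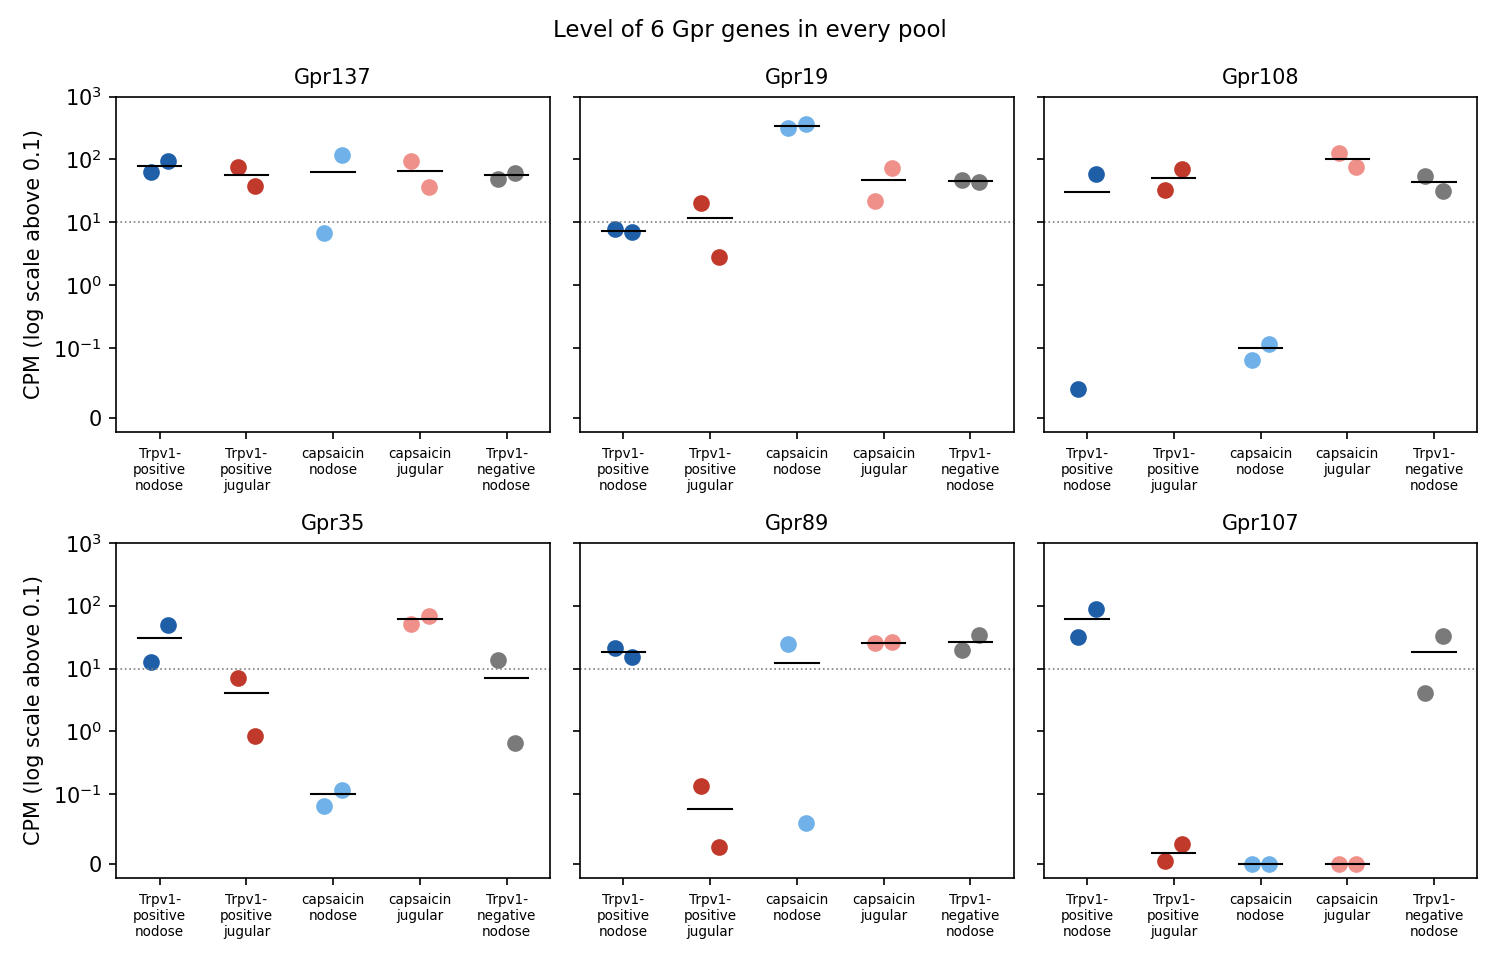
CPM of Gpr137, Gpr19, Gpr108, Gpr35, Gpr89 and Gpr107 in each of the 10 pools, on an axis that is logarithmic above 0.1 CPM and linear below it, with the group mean as a bar and 10 CPM as a dotted line. Gpr137 stays above 10 CPM in 9 pools, whereas the other 5 fall below 10 CPM in both pools of at least 1 group.

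edgeR called no Gpr gene here (0 of 10 tested) and 0 genes in all, a share of 0%. At an unadjusted p under 0.05 it had 3 of the 10 (30%; 14.1% of all genes), Gpr108, Gpr19 and Gpr35. DESeq2 called 2 of 31 tested, Gpr108 and Gpr35, where 5.81% of all genes were called. The log2 fold change of Gpr108 was -10.26 (SE 2.11, adjusted p = 0.352) by edgeR and -10.24 (adjusted p = 0.000499) by DESeq2. For Gpr35 the values were -9.53 (SE 2.62, adjusted p = 0.352) and -9.50 (adjusted p = 0.00148). The median over the 10 was 0.43, beside -0.02 for all genes tested, and over the 31 tested by DESeq2 it was -1.12, beside -0.26. The filter on low counts left few Gpr genes in this fit, and those left are not the whole family.

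Gpr160, a class A orphan proposed as a receptor of the satiety peptide CART, joined both selections in direction but not in level. It was at 56.9 and 209 CPM in capsaicin nodose and 35.0 and 0.0834 CPM in capsaicin jugular pools. In the Trpv1 selection it was at 4.51 and 0.476 CPM in Trpv1-positive nodose pools, with no count in any Trpv1-positive jugular or Trpv1-negative nodose pool. The Trpv1-positive nodose mean was at least 199-fold higher than the floor of the jugular pools and at least 207-fold higher than that of the Trpv1-negative pools. The mean is carried by 1 pool, and for the lower Trpv1-positive nodose pool the same bounds were 38-fold and 39.5-fold.

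In the fit to the 8 pools of both selections, with the selection as a covariate, edgeR called no Gpr gene (0 of 28 tested; 0.577% of all genes) and had 4 (14.3%; 11.1% of all genes) at an unadjusted p under 0.05, among them Gpr107, Gpr137c and Gpr179. DESeq2 called 3 of 44, where 7.17% of all genes were called. By DESeq2, Gpr160 had a log2 fold change of 7.24 toward nodose (adjusted p = 0.00797), Gpr107 of 6.52 (adjusted p = 0.0461) and Gpr108 of -5.27, toward jugular (adjusted p = 0.0368). By edgeR these were 6.35 (SE 3.40, adjusted p = 0.577), 11.53 (SE 3.80, adjusted p = 0.351) and -5.34 (SE 3.76, adjusted p = 0.783). Without the second Trpv1-positive nodose pool, which held 59.7 CPM of Gpr108, edgeR called Gpr108 at -10.23 (adjusted p = 0.0769). Without the first or the second capsaicin nodose pool the same value was -2.30 (adjusted p = 0.832) or -2.27 (adjusted p = 0.825). Of the 10 Gpr genes tested in each selection alone, 5 (50%) had the same direction in both, against 55.8% of the 7741 genes tested in both.

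**Figure D4:**
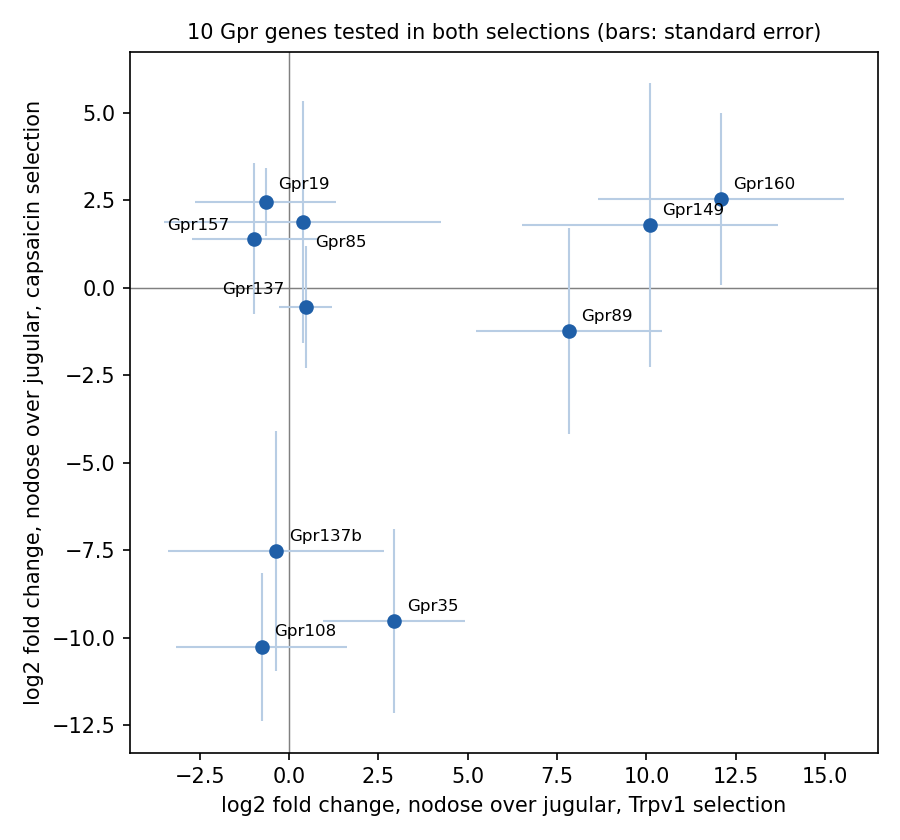
log2 fold change of nodose over jugular by edgeR in the Trpv1 selection (horizontal axis) and in the capsaicin selection (vertical axis) for the 10 Gpr genes tested in both, with bars of 1 standard error. Gpr160 and Gpr149 lie to the nodose side on both axes, whereas Gpr89 and Gpr35 lie to the nodose side in the Trpv1 selection and to the jugular side in the capsaicin selection.

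The test of whether the ganglia differ alike in both selections is the interaction, taken as the capsaicin log2 fold change less that of the Trpv1 selection. edgeR passed no Gpr gene at an adjusted p of 0.1 (0 of 28; 0% of all genes) and had 5 (17.9%; 10.3% of all genes) at an unadjusted p under 0.05, Gpr108, Gpr160, Gpr27, Gpr35 and Gpr45. DESeq2 passed 10 of 44, where it passed 16% of all genes. This test needed the adjusted p alone, with no fold change or CPM. Gpr35 had the smallest p of the 10, with an interaction of -12.18 (adjusted p = 1.57e-06) by DESeq2 and -12.52 (SE 3.56, adjusted p = 0.478) by edgeR. For Gpr89 the values were -8.88 (adjusted p = 0.0181) and -9.09 (SE 4.39, adjusted p = 0.509), and for Gpr108 -9.23 (adjusted p = 0.0243) and -9.61 (SE 3.57, adjusted p = 0.478). The edgeR value of Gpr108 rests on 1 pool, since it was -0.17 without the second Trpv1-positive nodose pool.

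The other 7 that DESeq2 passed were at 0 in both pools of at least 1 of the 4 groups or were high in single pools, so that their fitted interactions are not sizes of an effect. Gpr107 had no count in the capsaicin selection. Gpr155, the lysosomal cholesterol sensor, was at 0.0172 and 81.5 CPM in Trpv1-positive jugular, 0.0309 and 12.9 CPM in Trpv1-positive nodose, 0.0392 and 42.8 CPM in capsaicin jugular and 0 in both capsaicin nodose pools. Gpr176, a Gz-coupled orphan of the circadian clock, was at 161 CPM in 1 capsaicin nodose pool and at 0.0417 CPM in the other. Gpr146 was at 31.5 and 0 CPM in capsaicin nodose and at 22.6 and 0.0294 CPM in Trpv1-positive nodose pools. Gpr27, Gpr45 and Gpr179 stayed under 10 CPM in all 8 pools.

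The third comparison sets nodose neurons with the Trpv1 label against those without it, and its Trpv1-positive pools are those of the first comparison. Gpr19 and Gpr176 were at 10 CPM or more in both Trpv1-negative pools and at least 2-fold above both Trpv1-positive pools, as were 2.48% of all genes, and 0 Gpr genes met the reverse rule, which 1.65% of all genes met. Gpr176 was at 30.6 and 37.8 CPM in Trpv1-negative and 1.29 and 11 CPM in Trpv1-positive nodose pools, a log2 fold change of -2.44 (SE 1.69, adjusted p = 0.769). For Gpr19, whose levels stand above, it was -2.57 (SE 1.24, adjusted p = 0.580). Gpr155 was at 23.1 and 36.8 CPM in Trpv1-negative pools, above its 0.0309 and 12.9 CPM in the Trpv1-positive ones. The orphan Gpr153 was at 14.7 and 33.0 CPM in Trpv1-negative pools and overlapped its Trpv1-positive levels of 66.4 and 0.0245 CPM.

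edgeR called none of the 25 Gpr genes tested (0.0527% of all genes) and had 2 (8.0%; 11.1% of all genes) at an unadjusted p under 0.05, Gpr160 and Gpr37l1. DESeq2 called 0 of 39, where 2.55% of all genes were called, and had 9 (23.1%; 20% of all genes) at an unadjusted p under 0.05. Gpr160 passed the adjusted p of DESeq2 (0.000283) but not the level of 10 CPM in both pools that a call needs. Gpr37l1, which astrocytes and satellite glia express, was at 0.520 and 4.13 CPM in Trpv1-positive nodose, 11.3 and 0 CPM in Trpv1-positive jugular and 0 and 0.0167 CPM in Trpv1-negative nodose pools. The satellite glia markers of the Trpv1-negative pools summed to 2759 and 2459 CPM, against 3070 and 3100 CPM in the Trpv1-positive nodose pools. The part of glial RNA in the level of Gpr37l1 was not tested.

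The proton-sensing receptors Gpr4 and Gpr132 had no count in any pool. Gpr174, a lysophosphatidylserine receptor, had counts in every pool and reached 17.0 CPM in 1 Trpv1-positive nodose pool, with at most 3.38 CPM elsewhere. Gpr3, the one of the constitutively active Gs-coupled trio with counts, reached 10 CPM in a pool but in both pools of no group. In class C, Gpr158, a partner of the regulator of G protein signalling Rgs7, was at 4.85 to 42.4 CPM in the 6 pools of the Trpv1 selection but no higher than 0.876 CPM in the 4 capsaicin pools.

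Signalling partners (arrestins, receptor kinases, adenylyl cyclases and the Ric8 chaperones) were more widely detected than the Gpr genes. Of all genes, 33.5% had no count and 53.3% stayed under 10 CPM in every pool. Of the 19 partners counted, 0 were without a count, 15 reached 10 CPM in a pool and 8 in both pools of a group. edgeR called 0 of them in the 5 tests, with at most 1 at an unadjusted p under 0.05 in each. DESeq2 called none within the Trpv1 selection, 1 in the capsaicin selection, 2 over both selections and 5 in the interaction (Adcy2, Adcy5, Adcy9, Adrbk2 and Grk5), where the shares of all genes called are those given above. It called Adcy9, a cyclase, lower in capsaicin nodose pools, at 0 and 0 CPM against 11.9 and 16.7 CPM in capsaicin jugular pools (adjusted p = 0.00438; edgeR adjusted p = 0.352). Over both selections it called Adcy9 lower in nodose (adjusted p = 0.0286) and Grk4, a receptor kinase, higher, with a log2 fold change of 2.19 (adjusted p = 0.0820), where edgeR gave 2.03 (SE 1.5, adjusted p = 0.809). Grk4 was at 44.6 and 26.6 CPM in Trpv1-positive nodose and 2.08 and 6.31 CPM in Trpv1-positive jugular pools, but its capsaicin nodose pools (23.6 and 85.8 CPM) overlapped the capsaicin jugular ones (34.0 and 11.7 CPM). Arrb2, the beta-arrestin-2 gene, was at 45.5 and 48.5 CPM in Trpv1-positive nodose and 14 and 20.3 CPM in Trpv1-positive jugular pools. Its capsaicin nodose pools (22.8 and 0.468 CPM) overlapped the capsaicin jugular ones (0 and 6.92 CPM), and neither tool called it.

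The strand setting of the authors' counting is not given in the sources used here, and exons of 6 of the 11 Gpr genes at 10 CPM in both pools of a group overlap those of another gene in GENCODE vM21. These are Gpr107 (Gm13405), Gpr137 (Bad), Gpr155 (Gm13703 and Gm13709), Gpr176 (Gm29232), Gpr19 (2810454H06Rik) and Gpr89 (Gja5 and Pdzk1). Reads of the overlapping parts cannot be told apart. The exons of Gpr108, Gpr153, Gpr157, Gpr160 and Gpr35 overlap none.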

How the data were processed

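RNA of 10 pools of vagal neurons was sequenced after SMARTer cDNA synthesis with 15 cycles of amplification, which carries no molecular identifiers. Raw counts for each gene symbol were deposited by the authors, made per the submitters' processing notes with CASAVA 1.8.2, TopHat2 2.0.9, Bowtie2 2.1.0.0 and HTSeq on mm10, and the annotation counted on is not given in the sources used here. From the deposited counts, edgeR 4.0.16 (TMM, filterByExpr, glmQLFit and glmQLFTest) in R 4.3.3 was the main test over all genes. Groups came from the labels, and cell numbers from the study's methods. Each comparison within a selection was fitted to its 4 pools, and the others to 8 pools. DESeq2 1.42.0, which the authors used, and the other alternatives are treated in the closing section. The standard error is the log2 fold change over the square root of F.

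Genes were named if at 10 CPM in both pools of a group, called by either tool, or among the 5 largest separated changes per direction; others stand as examples of a role list and were chosen after their values were seen. Members and lists were chosen with earlier results of these data known. Some symbols are not reported here. Positions are from GENCODE vM21, which holds 72 of the 73 genes. The scripts were tested on simulated counts.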

Additional observations from a re-analysis of the deposited data

Results flagged for a closer look

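Gpr35 differed between the selections, with both Trpv1-positive nodose pools above both jugular pools (12.8 and 48.8 CPM against 7.20 and 0.836 CPM) and both capsaicin nodose pools below both jugular pools, and its edgeR interaction was -12.52 (adjusted p = 0.478). Gpr89 had the same change of order, with an edgeR interaction of -9.09 (adjusted p = 0.509). For Gpr89 the capsaicin order rests on 1 nodose pool at 0.0585 CPM, since the other, at 24.8 CPM, was close to the jugular pools at 25.3 and 26.5 CPM. The selection cannot be told apart from the sequencing core, the strain and the depth in either case. Groups of 2 pools were too small for a check of single pools that stand apart.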

How the results depend on the processing

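Only 28 log2 fold changes of Gpr genes were followed, those with an unadjusted edgeR p under 0.05 or a DESeq2 call. They were chosen in these same pools, which favours a kept direction, and they do not stand for the family. Of their 330 alternative values, 328 kept the direction and 18 were newly called. The 2 that reversed were the interaction of Gpr146 (10.79), at -0.02 without Trpv1-positive jugular replicate 2 and -2.59 without capsaicin nodose replicate 1, in a range of -2.59 to 19.40 over single pools left out. Counts of calls depended on the tool, and the cause was not tested. DESeq2 in place of edgeR called 510 genes in place of 35 and 2 Gpr genes (Trpv1 selection), 707 in place of 0 and 2 Gpr genes (capsaicin selection), 390 in place of 6 (Trpv1 label), 1117 in place of 69 and 3 Gpr genes (both selections), and 2493 in place of 0 and 10 Gpr genes (interaction, at the adjusted p alone). Without the filter on low counts edgeR called 59, 122, 10, 222 and 102 genes in the same order, and no Gpr gene. One fit to all 10 pools called 110 genes in the capsaicin selection. With the replicate block the counts were 13, 20, 1, 41 and 0, with 0 Gpr genes. Deviations of pools with the same number correlated at -0.0137 to 0.0177. The wide spread between pools could hide a pairing, so whether the numbers pair pools by animal cannot be told. Leaving out 1 pool gave 0 to 0 genes in the Trpv1 selection, 0 to 29 in the capsaicin selection, 0 to 0 for the Trpv1 label, 38 to 89 for both selections and 0 to 195 for the interaction. The interaction count was highest without capsaicin nodose replicate 1, and the capsaicin count was 29 without it, 26 without capsaicin jugular replicate 1 and 18 without capsaicin jugular replicate 2. The Gpr genes called then numbered 0 to 1 for both selections, the 1 being Gpr108, and 0 otherwise. RLE scaling and leaving out Rn45s changed no count of called Gpr genes.

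Plain library totals moved 13 of 21 group means by over 1 SD. Their CPM was 1.8 times lower than with size factors in capsaicin nodose replicate 2 and higher in the other 9 pools. The capsaicin pools are shallower, and a Gpr gene at 0 there is limited to 0.118 to 0.176 CPM.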

Other observations

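The 14 Gpr genes at 10 CPM in exactly 1 pool were spread over the groups, with 5 in Trpv1-positive nodose, 1 in Trpv1-positive jugular, 1 in capsaicin nodose, 4 in capsaicin jugular and 3 in Trpv1-negative nodose pools. They were named after their values were seen. Gpr119, the oleoylethanolamide receptor of gut endocrine cells, was at 63.7 CPM (1528 counts) in 1 capsaicin nodose pool, with at most 0.0392 CPM in the other 9. Gpr1, a chemerin receptor, was at 42.1 CPM (8177 counts) in 1 Trpv1-positive nodose pool and at most 0.00981 CPM elsewhere. Gpr61, a class A orphan, was at 40.1 CPM (9607 counts) in 1 Trpv1-negative nodose pool and at most 0.0834 CPM elsewhere. These levels were far above the floor of 3 counts in the one pool and at or under it in nearly all others. Gpr143, the melanosome protein of ocular albinism, was at 25.2 CPM in 1 capsaicin jugular pool and Gpr21 at 17.5 CPM in the other, each with no count in the remaining 9 pools. Gpr137c, of the family of Gpr137, was at 23.2 CPM in that same second jugular pool, with at most 0.134 CPM elsewhere. Exons of Gpr21 overlap those of Rabgap1 on the same strand. Neither the number of expressing cells nor the level per cell in such a pool was measured.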
